A study of Mus musculus with 9 samples.

Results

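The 10 genes described here, Trp63, Dlx3, Dlx5, Tfap2a, Gata3, Krt5, Krt14, Krt15, Krt17 and Sfn, are known for their roles in surface ectoderm and in the stratified epithelia that form from it. They were taken by symbol from the annotation of a mouse Illumina bead array, which gave 14 of the 25697 probes and 10 of the 16593 genes with a symbol. Each was followed over 9 arrays: 3 of mouse embryonic stem cells (ES), 3 of definitive endoderm derived from such cells in culture (DE) and 3 of anterior foregut cells derived in culture (AFE). The series asked how organized anterior foregut epithelia can be made from pluripotent cells with small molecules.

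ES cells were of the 129P2/OlaHsd strain and carried no reporter, DE cells were of a cross of 129X1/SvJ with 129S1/SV-+p+Tyr- cKitlSl-J/+, and AFE cells were of the 129X1/SvJ strain. The labels name 4 lines, AV3, p2lac40, Sox17GFP and Pax9Venus, all kept on mouse embryonic fibroblasts with LIF and freed of these feeders before differentiation. Endoderm was induced with GSKiXV at 5 nM and IDE-1 at 5 µM from day 2. On day 6 the cells were replated and given A83-01 at 500 nM, which blocks receptors of the TGF-beta family, together with LDN193189 at 100 nM, which blocks those for BMPs. Cells were purified by flow cytometry before RNA was taken, with gates that the labels do not describe, and the line of each sample is not stated. Strain differed with the group, so its part cannot be told apart from that of the stage. Nothing in the labels says that the arrays of a group came from separate cultures, so p-values measure the spread between these arrays, which may be technical.

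As background, surface ectoderm is the outer layer of the embryo that turns into epidermis. Trp63 encodes p63, a p53 family factor needed for a stratified epithelium to form, Tfap2a and Gata3 encode factors of non-neural ectoderm, and Dlx3 and Dlx5 encode homeodomain factors at its borders and in its appendages. Krt5 and Krt14 encode the type II and type I keratins that pair in basal cells, Krt15 another type I keratin of basal cells, Krt17 a type I keratin of appendages and wounded skin, and Sfn encodes 14-3-3 sigma, an epithelial adaptor protein that p53 can induce. Several of these genes are not particular to ectoderm: p63 also marks basal cells of the oesophagus and airway, which come from the foregut, and Gata3 is also used by pharyngeal derivatives such as the parathyroid and thymus and by trophoblast.

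RefSeq promoter sequences were at hand for 5 of the 10 genes, and 3 are shown because they stand for different patterns below: Gata3 rose in DE, Sfn fell there and Krt5 was above background on no array. Each line gives the 250 bases before the gene's start on the minus strand of GRCm38.p6, 5′ to 3′, at chr2:9878601-9878850 for Gata3, chr4:133602169-133602418 for Sfn and chr15:101712906-101713155 for Krt5. Capitals mark matches on either strand to the TATA box TATAAA, the GC box GGGCGG, the AP-2 site GCCNNNGGC, the GATA site AGATAA or the Dlx homeodomain site TAATTG, and the rest is in lower case.
Gata3: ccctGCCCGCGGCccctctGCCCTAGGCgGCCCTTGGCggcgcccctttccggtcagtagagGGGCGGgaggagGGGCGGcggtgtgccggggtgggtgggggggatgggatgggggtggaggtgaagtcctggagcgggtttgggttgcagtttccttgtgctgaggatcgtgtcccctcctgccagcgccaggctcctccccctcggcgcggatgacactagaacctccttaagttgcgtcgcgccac
Sfn: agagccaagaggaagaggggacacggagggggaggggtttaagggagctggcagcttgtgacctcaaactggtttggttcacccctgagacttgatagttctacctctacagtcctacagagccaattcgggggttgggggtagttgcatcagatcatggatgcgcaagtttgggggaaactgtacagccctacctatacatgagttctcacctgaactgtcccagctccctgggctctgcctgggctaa
Krt5: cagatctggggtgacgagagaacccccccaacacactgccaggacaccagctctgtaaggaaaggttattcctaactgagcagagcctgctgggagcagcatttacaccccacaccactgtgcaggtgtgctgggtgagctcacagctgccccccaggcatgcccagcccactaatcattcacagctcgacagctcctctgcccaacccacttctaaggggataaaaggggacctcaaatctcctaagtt
The Gata3 window held 3 AP-2 matches and 2 GC boxes, none overlapping another, in a sequence of 70% G and C. The Sfn and Krt5 windows held no match to any of the 5 motifs, at 54.4% and 56% G and C. Over the 32851 windows of this length in the promoter table, 13.7% held the AP-2 letters, 32.7% the GC box, 12.4% the TATA box, 9.99% the GATA letters and 7.17% the Dlx letters. These matches are letters only, and no binding was measured in the series.

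No array held all 10 genes above background, defined as a detection p under 0.05 for the brightest probe of a gene. ES cells had 6, 6 and 5 of the 10 above background, DE cells 3, 4 and 3, and AFE cells 5, 4 and 7. A probe was tested where it was above background on at least 3 of the 9 arrays, which held for 9 of the 14 probes and 8 of the 10 genes. The other 5 probes were above background on no array: both Dlx5 probes, the Krt5 probe, 1 of 3 Tfap2a probes and 1 of 2 Sfn probes. Levels below are log2 values of background-corrected, quantile-normalized intensities in the order replicate 1, 2 and 3. Differences are those of group means ± SE with n = 3 arrays a group, and a probe passed at an adjusted p of limma under 0.05.

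Among the 9 tested probes, 8 differed among the 3 groups by the moderated F-test, against 55.1% of all 15090 tested probes. In DE against ES cells 1 probe rose and 4 fell (55.6% called), where 44.0% of all tested probes were called, 21.4% as higher and 22.6% as lower. In AFE against DE cells 3 rose and 0 fell (33.3% called), against 21.1% of all, 11.0% higher and 10.1% lower. In AFE against ES cells 4 rose and 3 fell (77.8% called), against 42.0% of all, 21.2% higher and 20.8% lower. Counted by gene, the same comparisons gave 1 higher and 4 lower, 3 higher and 0 lower, and 4 higher and 3 lower of 8 genes, and for the 0 in AFE against DE the count was also 0 at an unadjusted p of limma under 0.05. These 8 genes entered through being above background in at least some group, so their counts describe them and are no evidence about all 10. The median log2 difference of the tested member probes was -0.29 for DE minus ES, 0.37 for AFE minus DE and 0.08 for AFE minus ES, where the medians over all tested probes were -0.01, 0.04 and 0.03.

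**Figure D1:**
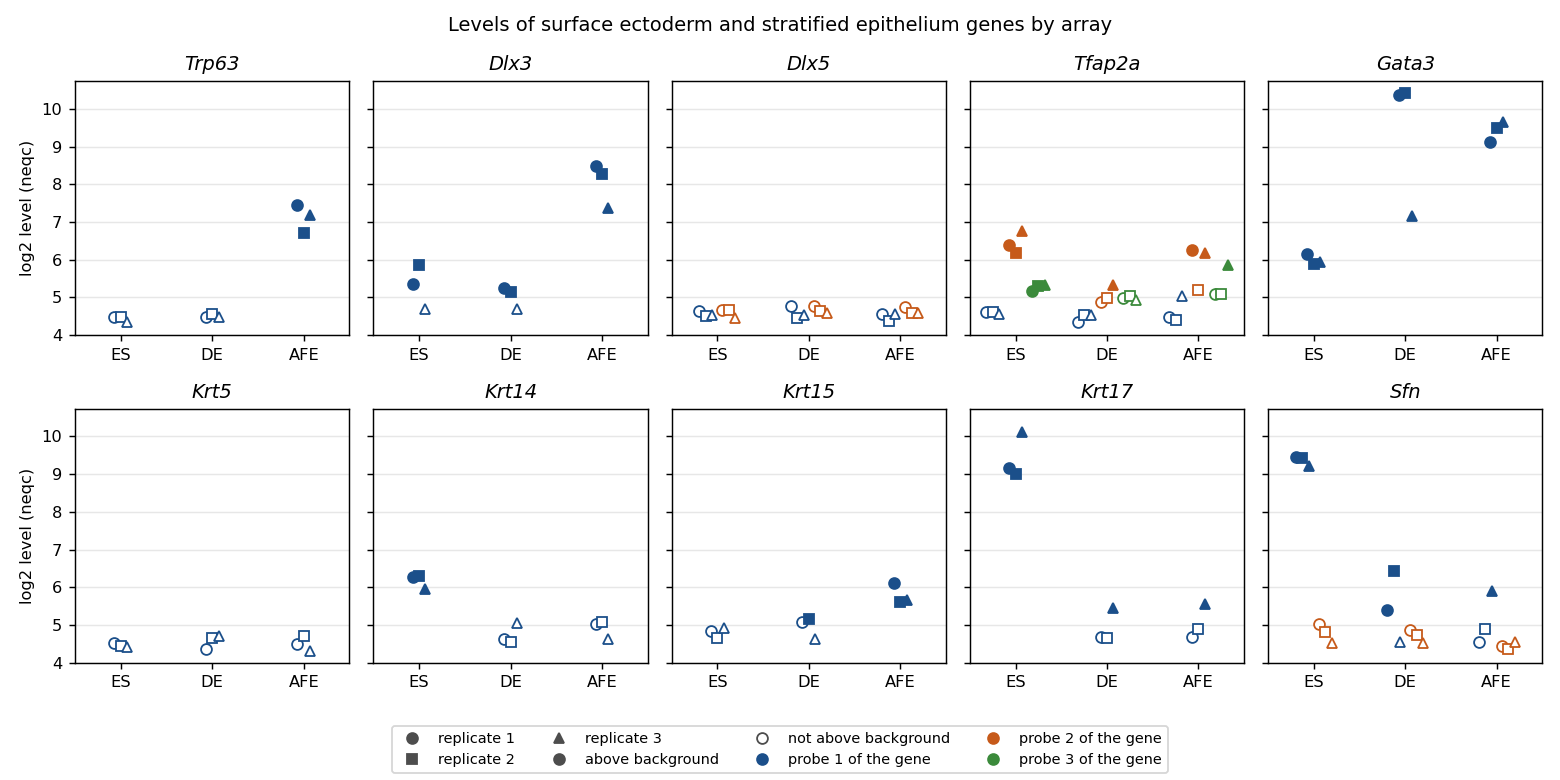
Log2 level of each probe of the 10 genes (vertical axis) in ES, DE and AFE arrays (horizontal axis), with a marker shape for each replicate, a colour for each probe of a gene and open markers where the probe was not above background. Trp63 and Dlx3 stood high in AFE, Gata3 in DE and AFE, Krt14, Krt17 and 1 Sfn probe in ES cells, while Dlx5 and Krt5 lay at the floor on all 9 arrays.

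Arrays of a group were not equally alike, and replicate 3 stood apart in each. DE 3 correlated with DE 1 and DE 2 at r = 0.937 and 0.935 over all probes, against 0.994 between DE 1 and DE 2, and its summed level of 9 endothelial markers was 42382, against 2649 and 2504 on DE 1 and DE 2, with a median log2 level of 10.03, against 4.99 and 4.72. AFE 3 correlated with AFE 1 and AFE 2 at r = 0.962 and 0.964, against 0.986 between those. ES 3 correlated with ES 1 and ES 2 at r = 0.977 and 0.978, against 0.994 between those; it was the only array on the second slide, and slide could be examined only by leaving it out. AFE 2 had 11 of 13 pluripotency markers above background, against 5 and 5 on AFE 1 and AFE 3. An array had 12628 to 14352 probes above background and a median intensity of 93.9 to 151. Marker lists followed the labels by group. For scale, 22.3% of 10251 genes, each by its brightest tested probe, rose and 21.8% fell in DE against ES. In AFE against DE 12.6% rose and 9.91% fell, and in AFE against ES 22.9% rose and 19.3% fell. All 13 pluripotency markers fell in both DE and AFE against ES cells, and all 13 definitive endoderm markers rose in DE against ES cells. In AFE against DE cells, 10 of 15 tested pharyngeal and foregut genes rose. Without DE 3, Fgf8 (-3.13) and Otx2 (-2.975) passed as lower there, and without ES 3 Irx3 was not called (adjusted p = 0.0697). Among endoderm markers, Cer1 was 6.86 on DE 3, against 11.75 and 11.52 on DE 1 and DE 2. Lhx1 was 9.01, against 12.88 and 12.84, while Ttr was 13.10, against 12.44 and 12.44. The pluripotency marker Dppa4 was higher on DE 3, at 9.92 against 5.40 and 5.44, and Nanog lower, at 5.55 against 6.98 and 6.83. Because whole sorted cell pools were measured, fewer cells that express a gene and less RNA per cell cannot be told apart.

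Trp63 was above background in AFE cells only, on all 3 arrays there and on none of the other 6. Its probe, ILMN_1216742, had levels of 4.47, 4.49 and 4.35 in ES cells, 4.49, 4.56 and 4.48 in DE cells and 7.44, 6.70 and 7.20 in AFE cells. Before normalization the intensities were 97.5, 102 and 60.8 in ES, 102, 114 and 98.5 in DE and 222, 167 and 186 in AFE. The lowest AFE array lay over 2 log2 units above every other array. Trp63 rose in AFE against DE by 2.60 ± 0.21 (adjusted p = 5.42e-05) and against ES by 2.67 ± 0.21 (adjusted p = 1.15e-05). The probe entered the test only through its AFE arrays, so these p-values describe it and give no separate support. Since the other groups were at background, the fold has a lower bound only: AFE was at least 4.00-fold above DE and at least 4.06-fold above ES cells. DE and ES cells differed by 0.07 (adjusted p = 0.801), both at background.

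Dlx3 was also highest in AFE cells, but was measured outside AFE as well. Its levels were 5.36, 5.85 and 4.69 in ES cells, 5.24, 5.14 and 4.68 in DE cells and 8.48, 8.27 and 7.38 in AFE cells, with 2, 2 and 3 arrays above background. All AFE arrays were higher than all others, and AFE 3, which stood apart from the other AFE arrays, was the lowest of them. The rise was 3.02 ± 0.36 in AFE against DE (8.12-fold, adjusted p = 0.000503) and 2.74 ± 0.36 in AFE against ES (6.69-fold, adjusted p = 0.00027). DE minus ES was -0.28 (adjusted p = 0.556), with overlapping arrays. Dlx5, the other Dlx gene of the set, was above background nowhere: its 2 probes had intensities of 67.1 to 118 over the 9 arrays and a lowest detection p of 0.193. Its levels, 4.38 to 4.77, lay in the range where the array gives no order.

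Gata3 was the 1 member that rose in DE. It had levels of 6.16, 5.88 and 5.94 in ES cells, 10.38, 10.43 and 7.17 in DE cells and 9.13, 9.49 and 9.64 in AFE cells, above background on all 9 arrays. The corresponding intensities were 168, 155 and 114 in ES, 1889, 2232 and 209 in DE and 523, 682 and 661 in AFE. All DE and AFE arrays were higher than all ES arrays, and DE 3 was far below DE 1 and DE 2 and below all AFE arrays. Gata3 rose by 3.33 ± 0.71 in DE against ES (10.1-fold, adjusted p = 0.0043) and by 3.43 ± 0.71 in AFE against ES (10.8-fold, adjusted p = 0.00399). AFE minus DE was 0.09 ± 0.71 (adjusted p = 0.946).

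The step from DE to AFE for Gata3 depended on 1 array. Without DE 3, AFE minus DE was -0.99 ± 0.20 with an adjusted p of 0.00642, so the gene fell, and DE minus ES was 4.41 ± 0.20. On DE 3 the endothelial markers were at their highest, as given above, while the median log2 level of 15 trophoblast markers was 5.67, against 6.47 and 6.36 on DE 1 and DE 2. The trophoblast sum of DE 3, 10002 against 2254 and 2149, was to 76.6% a single gene, Ets2. On DE 3, 10 of the 15 trophoblast markers were above background, against 8 and 9 on DE 1 and DE 2. Plac1 was also higher on DE 3, at 9.13 against 6.80 and 6.67, as was Rhox6, at 7.96 against 4.59 and 4.88. Tfap2c was lower there, at 5.51 against 8.26 and 8.21, as was Ascl2, at 5.67 against 6.47 and 6.36. An Elf5 probe that was not tested was at background on DE 3, at 4.77, against 6.90 and 6.81 on DE 1 and DE 2. The part of RNA of other cells in the Gata3 level of DE 3 was not tested. Its paralog Gata2, a factor of blood, endothelium and trophoblast that was picked after its values were seen, had the opposite pattern among the DE arrays: 4.68, 5.08 and 9.05 on DE 1, 2 and 3, against 7.57, 7.16 and 6.74 in ES cells. In AFE cells Gata2 had 7.57, 8.27 and 8.03. Gata2 passed in no comparison with all arrays, and without DE 3 it passed in all 3: it fell by 2.28 in DE against ES (adjusted p = 0.0002), rose by 3.08 in AFE against DE (adjusted p = 7.51e-05) and rose by 0.80 in AFE against ES (adjusted p = 0.028).

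Tfap2a was measured by 3 probes that did not behave alike. The brightest, ILMN_2764846, had levels of 6.39, 6.17 and 6.75 in ES cells, 4.88, 4.98 and 5.33 in DE cells and 6.26, 5.20 and 6.19 in AFE cells. It fell in DE against ES by 1.37 ± 0.30 on the log2 scale (adjusted p = 0.0045), with all DE arrays lower than all ES arrays. AFE 2 lay at the level of DE cells and AFE 1 and AFE 3 near that of ES cells. AFE minus DE was 0.82 (adjusted p = 0.0786) and AFE minus ES -0.56 (adjusted p = 0.159). Without AFE 2 the first of these was 1.16 with an adjusted p of 0.0174.

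The second Tfap2a probe above background, ILMN_2913031, passed in no comparison. It had levels of 5.17, 5.30 and 5.33 in ES cells, 4.98, 5.03 and 4.92 in DE cells and 5.10, 5.10 and 5.84 in AFE cells. Its differences were -0.29 for DE minus ES, 0.37 for AFE minus DE and 0.08 for AFE minus ES, with adjusted p-values of 0.315, 0.264 and 0.797. All of its DE arrays were lower than all of its ES arrays, the direction of the brighter probe, at a smaller size. The third probe was above background on no array. The change of Tfap2a in DE therefore rests on 1 of 3 probes.

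**Figure D2:**
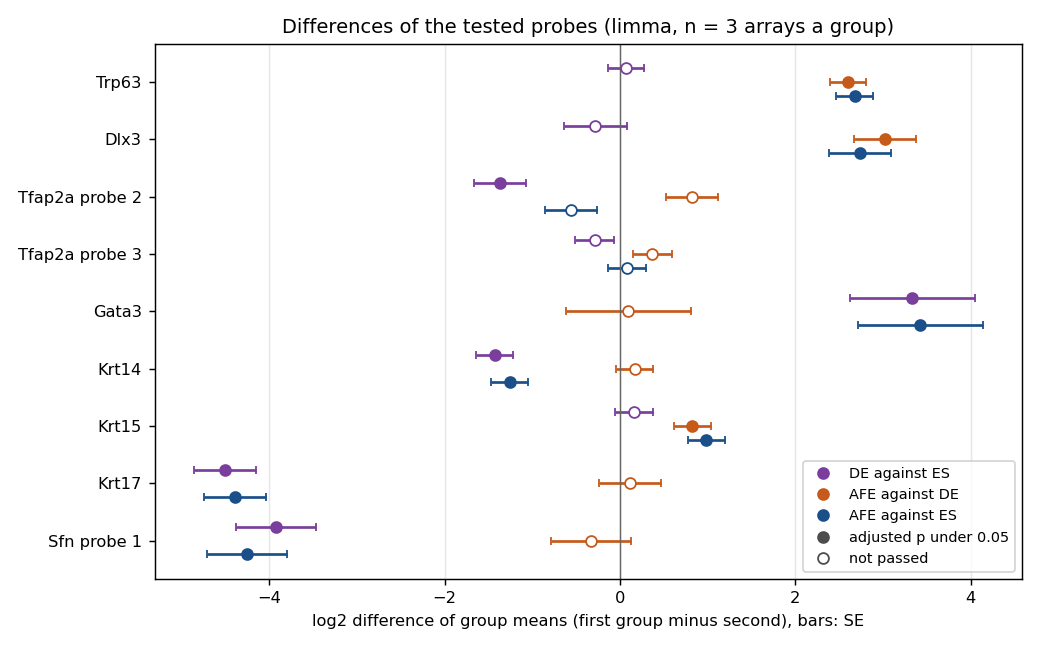
Log2 difference of group means for the 9 tested probes (horizontal axis, first group minus second, bars give the SE, n = 3 arrays a group), with filled markers where the adjusted p was under 0.05. Trp63, Dlx3 and Krt15 lie right of 0 in both comparisons of AFE cells, while Krt17 and Sfn lie at about -4 in both comparisons against ES cells and near 0 between AFE and DE.

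Krt5, the type II partner of basal keratinocytes, was above background on no array by its 1 probe, whose response to Krt5 was not tested. Its levels were 4.51, 4.43 and 4.42 in ES cells, 4.37, 4.67 and 4.70 in DE cells and 4.49, 4.69 and 4.30 in AFE cells, all at the floor, and its lowest detection p was 0.263. Its usual partner Krt14 was measured in ES cells, at 6.27, 6.29 and 5.96, and was at background on all DE and AFE arrays. Those arrays read 4.64, 4.54 and 5.05 in DE and 5.03, 5.08 and 4.63 in AFE. Krt14 fell by 1.43 ± 0.21 in DE against ES (at least 2.08-fold lower, adjusted p = 0.000552) and by 1.26 ± 0.21 in AFE against ES (at least 1.80-fold lower, adjusted p = 0.00121). The Krt14 probe entered the test only through its ES arrays, so these p-values describe it and give no separate support. Neither Krt5 nor Krt14 was therefore above background in AFE cells, where Trp63 was.

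Krt15 was the 1 keratin of the set that rose in AFE, by a small amount. It had levels of 4.83, 4.65 and 4.92 in ES cells, 5.09, 5.15 and 4.64 in DE cells and 6.10, 5.60 and 5.65 in AFE cells, above background on 0, 1 and 3 arrays. All AFE arrays were higher than all others. The difference was 0.82 ± 0.21 in AFE against DE (adjusted p = 0.0229) and 0.98 ± 0.21 in AFE against ES (at least 1.61-fold, adjusted p = 0.0049). Without its AFE arrays the probe would not have been tested, so these p-values give no separate support. The call against DE was lost in 6 of 21 alternatives, among them leaving out AFE 1 (0.67, adjusted p = 0.0779), where the adjusted p reached at most 0.101.

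Krt17 was high in ES cells and low in both derived groups. Its levels were 9.16, 9.01 and 10.13 in ES cells, 4.68, 4.66 and 5.44 in DE cells and 4.68, 4.89 and 5.55 in AFE cells, above background on 3, 1 and 1 arrays. The intensities were 710, 605 and 1058 in ES cells and 109 to 126 on the other 6 arrays. All DE and AFE arrays were lower than all ES arrays by over 3 log2 units. Krt17 fell by 4.51 ± 0.36 in DE against ES (adjusted p = 1.32e-05) and by 4.39 ± 0.36 in AFE against ES (adjusted p = 1.63e-05), with 2 of 3 arrays at background in DE and in AFE cells. Without its ES arrays the probe would not have been tested, so these p-values give no separate support. AFE 3 was the only AFE array on which Krt17 was above background. AFE minus DE was 0.11 (adjusted p = 0.856).

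Sfn followed Krt17 by 1 of its 2 probes. The probe ILMN_2648169 had levels of 9.47, 9.44 and 9.22 in ES cells, 5.38, 6.42 and 4.55 in DE cells and 4.56, 4.90 and 5.90 in AFE cells, above background on 3, 2 and 1 arrays. It fell by 3.92 ± 0.46 in DE against ES (adjusted p = 0.00014), where DE 3 was at background. In AFE against ES it fell by 4.26 ± 0.46 (adjusted p = 8.59e-05), where 2 of 3 AFE arrays, all but AFE 3, were at background. All ES arrays were higher than all others, and DE and AFE arrays overlapped. The second probe, ILMN_2867084, was above background on no array and read 5.02, 4.82 and 4.53 in ES cells, so the probes disagree and the fall of Sfn rests on the first of them.

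By their median level, fibroblast markers, which feeders would carry, were also highest in ES cells. Of 16 tested, 1 rose and 10 fell in DE against ES, where 22.3% of 10251 genes rose and 21.8% fell. In AFE against DE 2 rose and 2 fell, where 12.6% of all rose and 9.91% fell. In AFE against ES, 0 rose, also at an unadjusted p of limma under 0.05, and 7 fell, where 22.9% of all rose and 19.3% fell. Without ES 3, Col5a1, Col6a1 and Tagln were not called there. Pdgfra was higher in DE cells, at 10.38, 10.34 and 11.41, than in ES cells, at 6.01, 5.67 and 7.40. Their median log2 level was 8.44, 8.61 and 10.28 in ES cells, 5.18, 5.17 and 5.98 in DE cells and 7.31, 7.08 and 6.02 in AFE cells. The summed level of 17 fibroblast markers, of which Postn was never above background, was 34334, 34891 and 71391 in ES cells, 10460, 10898 and 11360 in DE cells and 11874, 17470 and 39473 in AFE cells. Acta2, a smooth muscle actin gene, made up 27.3% to 85.1% of a sum, the most on AFE 3, where Col1a1 and Col3a1 were at background and 11 of the 17 markers above it. Krt17 was highest on replicate 3 of each group; the fibroblast median was highest on that array in ES and DE cells and lowest on it in AFE cells. Krt14 and Sfn did not share that order among ES arrays: both were lowest on ES 3, at 5.96 and 9.22. The part of feeder RNA in the ES levels of Krt14, Krt17 and Sfn was not tested.

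**Figure D3:**
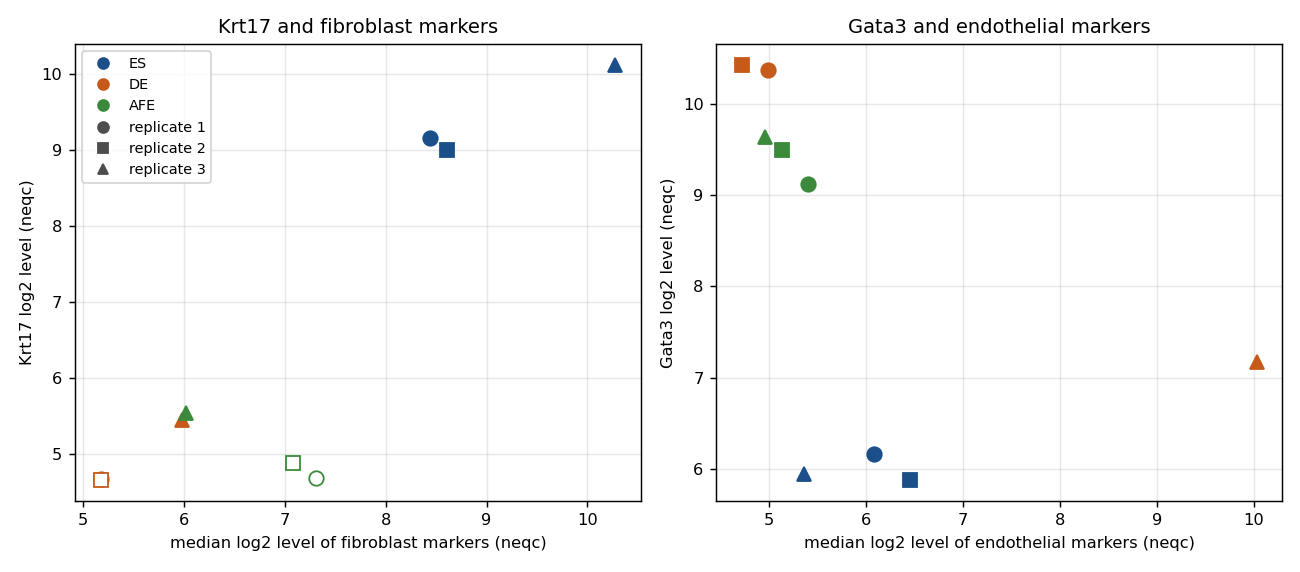
Left, log2 level of Krt17 (vertical axis) against the median log2 level of 17 fibroblast markers (horizontal axis) on the 9 arrays; right, log2 level of Gata3 against the median log2 level of 9 endothelial markers. Colours give the group, shapes the replicate, and open markers a member not above background. DE 1 and DE 2 overlap on the left. The 3 ES arrays had the highest fibroblast medians, 8.44 to 10.28, and the highest Krt17 levels, and DE 3 had the highest endothelial median, 10.03, with Gata3 at 7.17.

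Other cell types that use these genes were looked for by their markers. Over all 10251 genes, each by its brightest tested probe, 44.1% were called in DE against ES (22.3% higher, 21.8% lower). In AFE against DE 22.5% were called (12.6% higher, 9.91% lower) and in AFE against ES 42.2% (22.9% higher, 19.3% lower). Of 15 trophoblast markers on the array, Esx1, Hand1, Syna and Tpbpa were never above background, and of 11 tested 2 rose and 2 fell in DE against ES, 0 rose and 1 fell in AFE against DE, and 1 rose and 3 fell in AFE against ES. At an unadjusted p of limma under 0.05 the 0 in AFE against DE was 1, and without DE 3 the counts in the same order were 4 higher and 5 lower, 2 higher and 2 lower, and 3 higher and 3 lower. Their sums were 6651 to 7006 in ES cells and 5611 to 6311 in AFE cells, and the 3 DE values are given above. A single gene made up most of several sums: Tfap2c 59.6% to 63.6% of those in ES cells and Ets2 73.9% of that on AFE 1. The sums are therefore no measure of an amount of trophoblast. Of 10 neural crest markers, Foxd3, Pax3 and Pax7 were never above background. Of 7 tested, 3 rose and 1 fell in DE against ES, and 3 rose and 1 fell in AFE against DE. In AFE against ES, 3 rose and 0 fell, the latter also at an unadjusted p of limma under 0.05. In AFE against DE, Sox9, Tfap2b and Prrx1 rose and Ets1 fell, as did Msx1 without DE 3. Sox9 also rose by 3.06 in AFE against ES, where Prrx1 differed by -0.01. Ets1 was 9.93, 10.16 and 11.73 on the DE arrays. Sums of the neural crest markers ran from 785 to 1022 in ES, 2082 to 4315 in DE and 1140 to 1446 in AFE cells. These too weigh the brightest genes most, such as Ets1 on DE 3, and are no measure of an amount of neural crest. Of 6 tested endothelial markers 0 rose and 0 fell in DE against ES, also at an unadjusted p of limma under 0.05, and 3 fell without DE 3. In AFE against DE 1 rose and 0 fell, with 1 higher and 2 lower at an unadjusted p of limma under 0.05. The gene that rose was Kdr. The other 5, Pecam1, Tek, Emcn, Esam and Egfl7, had differences of -1.21 to -3.03 there and did not pass, with DE 3 in the DE means. Kdr rose in both AFE comparisons, by 1.04 against DE and 0.64 against ES, and was not called against ES without ES 3 (0.53, adjusted p = 0.0705). Without DE 3 the endothelial count in AFE against ES was 1 higher and 3 lower.

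The members fell into groups of like pattern over the 9 arrays, described here by Pearson's r of levels, which all share the same arrays and normalization. Trp63 and Dlx3 had r = 0.947 and Trp63 and Krt15 r = 0.923. Krt17 and Sfn had r = 0.933. Gata3 ran against Krt14 (r = -0.925) and Krt17 (r = -0.898). The 2 tested Tfap2a probes had r = 0.571 with each other. These values pool arrays of 3 groups and include the differences between groups.

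Among 4232 probes of other genes that spanned at least 2 log2 units, those most like Trp63 over the 9 arrays were of Dmrt3 (r = 0.994), Rassf10 (0.993), Igsf9 (0.992), Kazald1 (0.99) and Irx1 (0.989). Dlx3 was most like an unnamed probe (r = 0.977), followed by Bmp7, a secreted BMP ligand, at 0.971, Pla2g12a at 0.970 and Igdcc3 at 0.970. Gata3 was most like Fzd7, a Wnt receptor, at 0.994, with Pdlim3 at 0.994 and Rgma at 0.992. Krt17 was most like Lynx1 (0.997), Hic1 (0.996), Nqo1 (0.994) and Itga11 (0.994). Sfn was most like Ubxn2a (0.993) and Ltbp4 (0.992), Krt14 like Dok2 (0.997), and Krt15 like Amer2 (0.979). For Tfap2a the highest values were 0.951 with Napepld for the brighter probe and 0.978 with Abhd2 for the dimmer.

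Krt14, Krt15 and Krt17 lie in 1 keratin cluster on chromosome 11, where their neighbours were read in gene order of the RefSeq table. Krt42, next to Krt17, had the pattern of Krt17: its mean level was 4.86 in DE and 4.92 in AFE cells, against 10.46 in ES cells (-5.61 in DE against ES, adjusted p = 3.23e-07, and -5.54 in AFE against ES, adjusted p = 4.56e-07). Krt16, between Krt14 and Krt17, was above background on 2 arrays and was not tested, and Krt13 and Krt9 were above background on none. Krt19, a keratin of simple epithelia next to Krt15, ran the other way: it rose by 1.96 in DE against ES (adjusted p = 0.000398) and by 1.25 in AFE against DE (adjusted p = 0.0115). Genes of this cluster are close copies of each other, and whether a probe also bound the RNA of a neighbour was not tested.

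**Figure D4:**
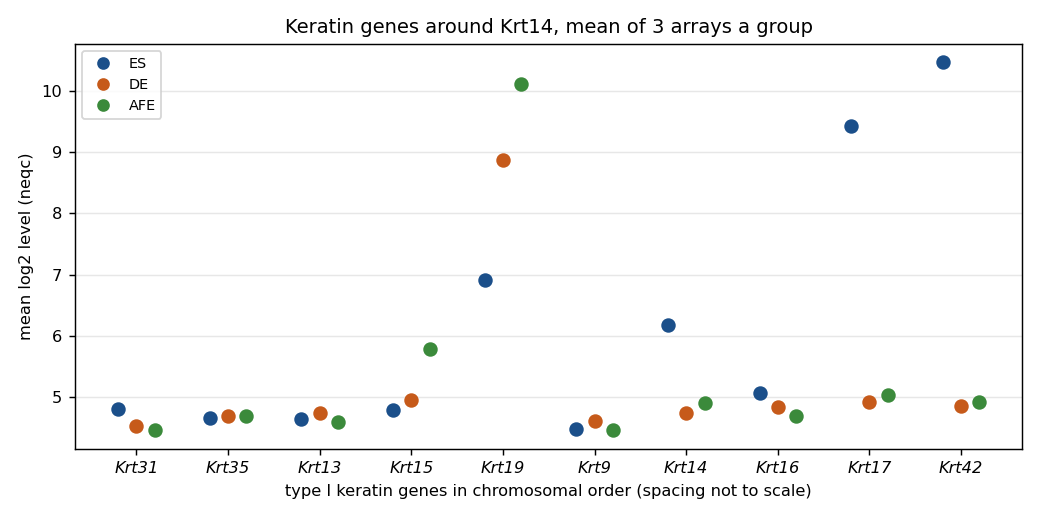
Mean log2 level (vertical axis, 3 arrays a group) of type I keratin genes around Krt14 on chromosome 11 in gene order (horizontal axis, spacing not to scale), in ES, DE and AFE cells. Krt14, Krt17 and Krt42 stood highest in ES cells and Krt15 and Krt19 in AFE cells, while the other genes lay near 5 or below in all 3 groups.

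The cluster of Krt5 on chromosome 15 was mostly not above background. Its direct neighbours Krt6a, Krt6b, Krt71, Krt72, Krt73, Krt2 and Krt1 were above background on no array. Krt90, 5 genes away, had a mean level of 4.68 in ES cells, 7.21 in DE cells and 4.55 in AFE cells (2.53 in DE against ES, adjusted p = 0.00122, and -2.66 in AFE against DE, adjusted p = 0.00279). Around the transcription factors, Dlx4 next to Dlx3 was above background on no array, and Itga3, which encodes an integrin subunit and lies on the other side of Dlx3, rose by 2.17 in AFE against DE (adjusted p = 0.00798). P3h2, next to Trp63, rose by 2.57 in DE against ES and by 2.35 in AFE against ES, without the step between DE and AFE that Trp63 had (-0.22, adjusted p = 0.786). Gcnt2 next to Tfap2a fell by 2.10 in DE against ES (adjusted p = 0.00342), as the brighter Tfap2a probe did.

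Gene lists around the members were counted by the brightest tested probe of each gene, where 44.1% of 10251 genes were called in DE against ES (22.3% higher, 21.8% lower), 22.5% in AFE against DE (12.6% higher, 9.91% lower) and 42.2% in AFE against ES (22.9% higher, 19.3% lower). Of 13 paralogs of the transcription factor members on the array, Trp73, Dlx1, Dlx2, Dlx4, Gata5 and Tfap2d were never above background. Of the 6 tested, 3 rose and 1 fell in DE against ES, 1 rose and 2 fell in AFE against DE, and 2 rose and 1 fell in AFE against ES. Without DE 3, where Gata2 passed, these counts were 3 and 2, 2 and 2, and 3 and 1. Tfap2c, the AP-2 gamma factor of pluripotent cells and trophoblast, fell by 4.69 ± 0.66 in DE against ES and by 3.85 ± 0.66 in AFE against ES. Tfap2b rose by 1.91 ± 0.40 in AFE against DE and by 1.41 ± 0.40 in AFE against ES. The endoderm factor Gata4 fell by 3.13 and Gata6 fell by 2.99 in AFE against DE, the step at which Gata3 was called only without DE 3.

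Regulators of epidermis and surface ectoderm outside the set were mixed. Of 17 tested, 3 rose and 4 fell in DE against ES, 5 rose and 2 fell in AFE against DE, and 5 rose and 3 fell in AFE against ES. In AFE against DE, Grhl2, a grainyhead factor of epithelial junctions, rose by 2.81 ± 0.65, Eya1, a cofactor of placodes and pharyngeal pouches, by 2.51 ± 0.19 and Esrp1, an epithelial splicing factor, by 1.89 ± 0.43. Klf4, a factor of both ES cells and the epidermal barrier, fell by 1.93 in AFE against DE and fell by 4.39 in AFE against ES, and Klf5 fell by 3.51 against ES. Without DE 3 the count in DE against ES was 5 higher and 4 lower, with Esrp1 and Esrp2 added as higher, that in AFE against DE was 5 higher and 6 lower, since Grhl3, Ovol2, Ripk4 and Msx1 then passed as lower, and that in AFE against ES was 8 higher and 6 lower. Without ES 3 the AFE against ES count was 3 higher and 4 lower. Grhl2 itself was at 7.76, 7.73 and 4.81 on the DE arrays.

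Genes of later stratification were largely unmeasured. Of 24 keratin and cornified envelope genes with a probe, 13 were never above background, among them Krt1, Krt2, Krt13, Krt6a, Krt6b and the envelope protein gene Ivl. Of the 8 tested, 1 rose and 2 fell in DE against ES, 1 rose and 1 fell in AFE against DE, and 0 rose and 1 fell in AFE against ES (0 and 2 at an unadjusted p of limma under 0.05). Tgm1, a transglutaminase that crosslinks the envelope, fell by 3.78 ± 0.53 in DE against ES and by 2.74 ± 0.53 in AFE against ES, the comparisons in which Krt17 and Sfn fell. Krt23 rose by 1.86 ± 0.39 in DE against ES and fell by 2.85 ± 0.39 in AFE against DE. Without DE 3, Krt23 also fell in AFE against ES, by 0.99, which made 2 lower there, and without ES 3 Lor was not called in DE against ES, which left 1 lower.

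Adhesion genes shared with stratified epithelium were mixed. Of 7 tested desmosome and cell contact genes, 3 rose and 0 fell in AFE against DE and 4 rose and 0 fell in AFE against ES, while 1 rose and 1 fell in DE against ES. The 0 in both AFE comparisons was also 0 at an unadjusted p of limma under 0.05, and without DE 3 the DE against ES count was 3 higher and 0 lower. Cdh3, the P-cadherin of basal cells, rose by 2.68 ± 0.34, the plaque protein gene Ppl by 2.08 ± 0.30 and the plakophilin gene Pkp3 by 1.55 ± 0.23 in AFE against DE. The desmosomal genes Dsc1, Dsc2, Dsc3, Dsg1a, Dsg3 and Jup were never above background, and whether their probes respond to these genes was not tested. Of 14 tested hemidesmosome and basal surface genes, 3 rose and 2 fell in AFE against DE, 2 rose and 3 fell in DE against ES, and 2 rose and 2 fell in AFE against ES. Itgb4, the integrin subunit of hemidesmosomes, rose by 2.56 ± 0.21 in AFE against DE, and Col17a1, the hemidesmosomal collagen, fell by 1.87 ± 0.37 to background there. Without DE 3 the hemidesmosome count was 4 higher and 5 lower in DE against ES and 3 higher and 4 lower in AFE against ES, and without ES 3 that in AFE against ES was 1 higher and 0 lower.

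Of 10 simple epithelial genes, 5 rose in DE against ES (Krt7, Krt8, Krt18, Krt19 and Cldn6), 4 in AFE against DE (Krt19, Krt20, Cldn7 and Ocln) and 8 in AFE against ES, with 0 lower in each (0, 1 and 0 at an unadjusted p of limma under 0.05). Krt7, Krt18 and Krt19 rose by 2.83, 2.64 and 3.20 in AFE against ES, where Krt14 and Krt17 fell. Krt19 was the 1 gene called at both steps. Without DE 3 or without ES 3, 1 of the 10, Krt8, passed as lower in AFE against DE. The count in DE against ES was 7 higher and 1 lower without DE 3. In AFE against ES, Krt8 (adjusted p = 0.0817) and Tjp3 (adjusted p = 0.0622) were not called without ES 3.

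**Figure D5:**
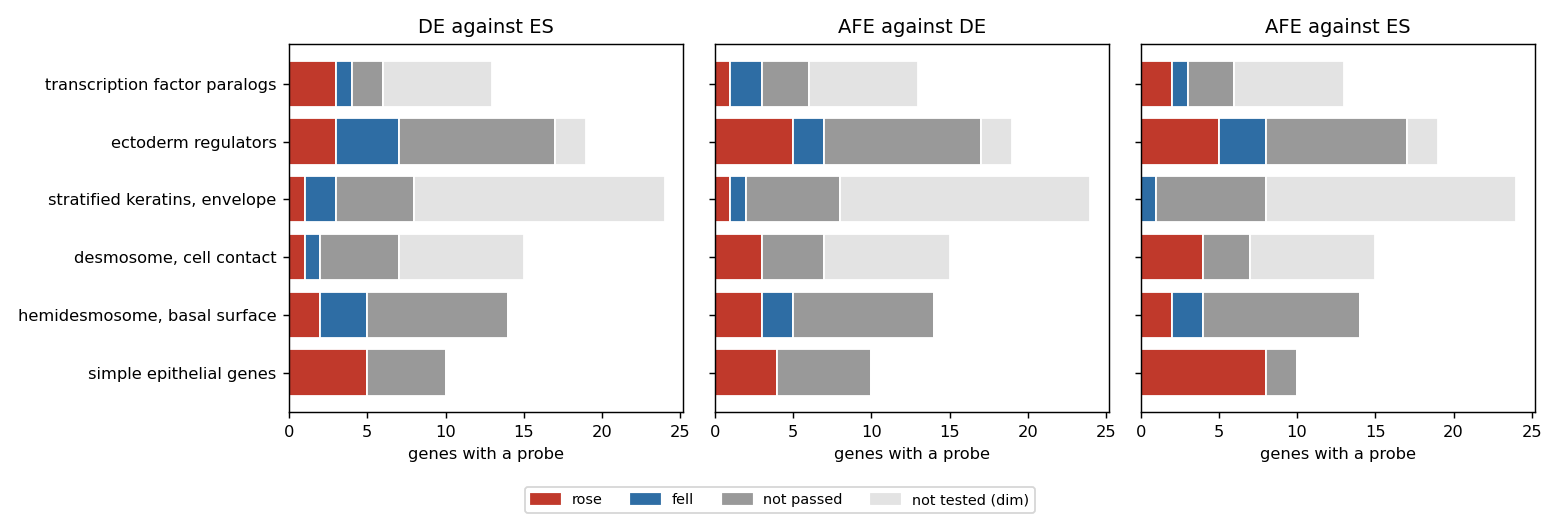
Number of genes with a probe (horizontal axis) in 6 lists related to the members that rose, fell, did not pass or were too dim to test, with a panel for each of the 3 comparisons. Stratified keratin and envelope genes were mostly too dim to test, and the 10 simple epithelial genes had no lower call in any of the 3 comparisons.

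Around Sfn, the 6 other 14-3-3 genes, which are expressed in most cells, were all tested and 0 passed in DE against ES. At an unadjusted p of limma under 0.05, 2 were higher and 1 lower. The first Sfn probe fell there by 3.92 ± 0.46, with DE 3 at background, and the other Sfn probe was above background on no array. Without DE 3, Ywhaz passed there as higher, by 0.54 (adjusted p = 0.0303). In AFE cells Ywhae rose by 0.70 against DE and by 0.77 against ES, while Ywhah fell by 0.54 against DE and fell by 0.62 against ES. Of 14 tested p53 target genes, the class to which Sfn is assigned, 1 rose and 7 fell in DE against ES, 4 rose and 0 fell in AFE against DE, and 0 rose and 6 fell in AFE against ES, where both 0 counts were also 0 at an unadjusted p of limma under 0.05. Gadd45a fell by 2.74 ± 0.31 in DE against ES, rose by 1.08 ± 0.31 in AFE against DE and fell by 1.66 ± 0.31 in AFE against ES. Cdkn1a and Ccng1 passed in no comparison. Sfn had the falls of Gadd45a against ES and not its rise in AFE against DE (-0.34, adjusted p = 0.648). Without ES 3, the p53 target count in AFE against ES was 0 higher and 3 lower, and the 1 rise in DE against ES, Sesn1, was lost without DE 3 (adjusted p = 0.0541) and without ES 3 (adjusted p = 0.0781).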

How the data were processed

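RNA of 9 samples (500 ng of total RNA each, per the labels' protocols) was amplified, labelled and hybridised to Illumina mouse bead arrays. The deposited intensity values are linear bead signals per probe, not yet normalized, per the file headers. Beside each stands the deposited detection p-value of that signal against the array's negative controls. A deposited log2 table was made by the authors in a way the labels do not state. In it, 7 columns rank the probes as their own intensity column, the column labelled ES 3 ranks them as intensities of ES 2 and the column labelled ES 2 as no intensity column, so it served as an alternative only.

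Intensities were processed in R 4.3.3 with limma 3.58.1: neqc with the detection p-values and an offset of 16, quantile normalization and log2. Every probe was fitted by itself on all 9 arrays, with Benjamini-Hochberg adjustment over the 15090 probes with detection p under 0.05 on at least 3 arrays; every adjusted p is of this fit. A single gene symbol was given for 23978 of the 25697 probes, several for 0 and none for 1719; by Entrez ID, 23962 matched the RefSeq gene table. A fold against a group at background is a lower bound, set from the lowest level above background per array or the probe's own level if higher. The code was tested on simulated data. The number of arrays limits the precision.

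The members, lists and thresholds were chosen with earlier results of these data known. All 10 members are named with all their probes. From each of 15 further lists, up to 4 called genes per comparison with the largest difference are named. List members given by their levels, only by their call, or by name as never above background, and the chromosomal neighbours go beyond this. These were picked after their values were seen. Likeness names up to 5 probes with the highest r. Figures were drawn with matplotlib 3.10.9. Alternatives covered background correction, scaling, filters, the authors' values, several probes of a gene, the arrays fitted, moderation, the replicate block and leaving out each array; 2 were added after seeing the data: the authors' values without their unmatched ES column, and list counts without DE 3 or ES 3.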

Additional observations from a re-analysis of the deposited data

How the results depend on the processing

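Over 22 alternatives, 10 of the 15 passed pairs of probe and comparison passed in every one that tested them, and 10 of the 12 that did not pass stayed so in all. The exceptions among passed pairs were Gata3 in both comparisons with ES, Tfap2a in DE against ES and Krt15 in both comparisons of AFE cells. With the authors' processed values, 3 member probes instead of 5 passed in DE against ES and 5 instead of 8 in the F-test; Gata3 then had 2.06 in DE against ES (adjusted p = 0.258) and 1.99 in AFE against ES (0.269), and Tfap2a -0.58 in DE against ES (0.575). That table holds an ES column that matches no intensity column, and with it left out the counts were within 1.5 times the reported ones. All probes called with the authors' values were 1140 instead of 6636 in DE against ES, 1194 instead of 3183 in AFE against DE, 2127 instead of 6336 in AFE against ES and 2747 instead of 8311 in the F-test; in AFE against DE, leaving out DE 1, DE 2 or AFE 2 gave 2002, 1840 and 2065.

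Differences that changed sign were mostly near 0 and not called. Gata3 in AFE against DE was -0.0212 without background correction, -0.24 under median scaling, which moved the median of all probes to -0.14, and -0.0627 with the authors' values with or without the unmatched column. Leaving out 1 array at a time gave -0.99 to 0.65 for Gata3, -0.14 to 0.37 for Krt17 and -0.78 to 0.15 for Sfn in AFE against DE; of these, Gata3 at -0.99 without DE 3 was called. With the authors' values Trp63 was -0.0868 in DE against ES and the brighter Tfap2a probe 0.32 in AFE against ES; the dimmer Tfap2a probe in AFE against ES was -0.0182 under cyclic loess and ran from -0.17 to 0.205 over arrays left out. The causes were not tested. Leaving out 1 array at a time, 5 to 5 member probes passed in DE against ES, 2 to 4 in AFE against DE, 7 to 7 in AFE against ES and 8 to 8 in the F-test.

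Replicate numbers showed no sign of pairing the samples: deviations from the group means correlated between same-numbered arrays at r from -0.147 to 0.0837. With 3 arrays a group, of which replicate 3 stood apart, this check cannot exclude a pairing. With the replicate block, 5, 3 and 7 member probes passed in the 3 comparisons and 8 in the F-test, as without it, and all probes called were 6307, 2762, 6101 and 7809. Signals near background limit Krt15 and Dlx3, whose levels in ES and DE cells lay close to the detection limit, and the dimmer Tfap2a probe; the brighter one lay close to it in DE cells.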

Other observations

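The authors' processed table holds a column labelled ES 2 whose probe ranks match no deposited intensity column, the closest being DE 2 with Spearman's rho of 0.926. The members had values there unlike those of the column labelled ES 1, on the authors' log2 scale. Gata3 stood at 9.75 in the column labelled ES 2 and 5.97 in that labelled ES 1, with 10.28 and 10.33 in those of DE 1 and DE 2. Krt17 stood at 5.43, against 8.96, and the brighter Tfap2a probe at 3.47, against 6.19. The first Sfn probe was near the ES value, at 8.54 against 9.27, and Krt14 was at 5.78 against 6.08. The labels do not say which sample this column measures. It enters only the alternative with the authors' processed values.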
